A study of Homo sapiens with 6 samples.

Results

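The genes described here encode the subunits, activators and assembly factors of the proteasome. They are all row symbols of the deposited count table made of PSM, a letter from A to G and a number. The rule found 47 of 19876 symbols, and 46 of the 47 had enough reads to be tested. The proteasome is the protease complex that breaks down proteins tagged with ubiquitin. Its 20S core is a barrel of alpha rings, which gate the entrance, and beta rings, which hold the cutting sites. The 19S particle caps the barrel, recognises ubiquitin chains and unfolds the substrate with a ring of ATPases. Under interferon the catalytic beta subunits PSMB5, PSMB6 and PSMB7 are exchanged for the immunoproteasome subunits PSMB8, PSMB9 and PSMB10, which changes the peptides made for display on MHC class I molecules.

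RNA sequencing was done on a wild-type line, labelled as A549 lung adenocarcinoma cells, that was cultured with rhTR11B (3 libraries) or with phosphate-buffered saline, PBS, as the negative control (3 libraries). TR11B denotes osteoprotegerin, the product of TNFRSF11B. The labels give neither dose nor time, and all libraries come from the same line in the same serum-containing medium. The labels call the libraries biological replicates without saying whether they were separate cultures, so p-values reflect library-to-library spread alone, part of which may be technical. The rhTR11B libraries held 36315751 to 36992958 counts and the PBS libraries 37203313 to 38148838. The 46 tested proteasome genes had between 683 and 13727 counts in each library, and the common biological coefficient of variation was 0.0656.

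The data go against the label of the line in part. The epithelial keratins KRT8 and KRT18 averaged 907 ± 19.99 and 669 ± 15.8 CPM, counts scaled for library size, with rhTR11B and 924 ± 33.3 and 692 ± 18.3 CPM with PBS (SD, n = 3 each). NQO1, an antioxidant enzyme gene known to be abundant in A549, averaged 232 ± 8.31 CPM with rhTR11B and 247 ± 5.03 CPM with PBS. These levels go with the label. KRT19, EPCAM and CDH1, which also mark epithelial cells, had at most 10 counts in any library. CDKN2A, a gene known to be deleted in A549, had 1593 to 2030 counts with rhTR11B and 2036 to 2310 with PBS, and AKR1C2, which A549 is known to express strongly, had 0 or 1 count. These last genes were looked up after the values had been seen. AKR1B10, AKR1C1 and ALDH1A1 of the marker list were not analysed here. The summed level of 4 fibroblast markers was 4.29 to 6.43 CPM with rhTR11B and 2.75 to 3.67 CPM with PBS. That of 2 blood markers was 0.241 to 0.589 CPM with rhTR11B and 0.182 to 0.428 CPM with PBS, and that of 3 endothelial markers 0.192 to 0.241 CPM and 0.131 to 0.416 CPM. None of these 9 genes was at 0 in all libraries, the other 3 blood markers listed were not analysed here, and their part in the results was not tested. The cells are therefore called only the cells labelled A549.

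Most proteasome transcripts stood slightly lower with rhTR11B, and none passed the test. Of the 46 tested genes, 42 had a log2 fold change below 0, against 6779 of the 13567 genes tested over the whole table. Their median log2 fold change was -0.14, or -9.41% in level, against a median of 7.3e-05 over all tested genes. At a Benjamini-Hochberg adjusted p under 0.05 from edgeR's quasi-likelihood test, 0 of 46 were called lower and 0 higher, where 0.678% of all tested genes were called lower and 2.92% higher. The smallest adjusted p was 0.0571, for PSMC3. In bulk RNA, fewer cells of a kind and less RNA per cell cannot be told apart. At an unadjusted p under 0.05, 26 of the 46 were lower and 0 higher, against 10.3% and 13.8% of all tested genes. The 3 rhTR11B libraries lay wholly below the 3 PBS libraries for 23 of the 46, against 14.0% of all tested genes, and wholly above them for 1, PSMG4, against 15.1%. The Wald test of DESeq2 called 5 of the 46 lower (PSMA3, PSMC1, PSMC3, PSMC6 and PSMD2), and 0 higher, against 2.95% and 6.49% of the genes to which it gave an adjusted p. With limma-voom 0 were called, against 0.627% lower and 2.56% higher. At an edgeR adjusted p under 0.1, 9 of the 46 were lower and 0 higher, against 4.1% and 7.78%, and under 0.01 0 were called, against 0.0369% and 0.332%. Without the filter on low counts 8 were called lower, against 2.43% of all genes.

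The size of the shift depended on single libraries. Set against the mean of the PBS libraries on the log2 CPM scale, the median proteasome gene deviated by -0.07 in rhTR11B replicate 1, by -0.11 in replicate 2 and by -0.22 in replicate 3. In the PBS libraries it deviated by -0.03, 0.02 and 0.03. Replicate 3 of the rhTR11B group was thus the lowest library, and it was the lowest of all 6 for 42 of the 46 genes and for 30.1% of all tested genes. Without it the median log2 fold change of the 46 genes was -0.09 and 0 were called, against 0.626% of all tested genes called lower. Without rhTR11B replicate 1 the median was -0.17 and 8 were called lower, against 3.1% of all tested genes. The 8 were PSMA3, PSMA5, PSMB7, PSMC1, PSMC3, PSMD2, PSMD13 and PSME3. Without rhTR11B replicate 2, PBS replicate 1, PBS replicate 2 or PBS replicate 3, 0 were called, against 0.342%, 0.196%, 0.0363% and 0.0218% called lower over all genes. Together the 47 genes took 0.588%, 0.577% and 0.520% of the counts in rhTR11B replicates 1 to 3 and 0.610%, 0.631% and 0.626% in PBS replicates 1 to 3. Over the same libraries the 13 mitochondrially encoded genes took 7.88% to 10.4% of the counts with rhTR11B and 6.63% to 7.71% with PBS. The 82 genes with symbols of cytosolic ribosomal proteins took 3.85% to 4.57% and 5.00% to 5.15%. Both the 10.4% and the 3.85% were those of rhTR11B replicate 3. The part of these shares in the proteasome values was not tested beyond 1 fit. With the mitochondrially encoded genes left out before scaling, a fit added after the data were seen, the median of the proteasome genes was -0.14 and 0 were called lower, against 0.553%.

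**Figure D1:**
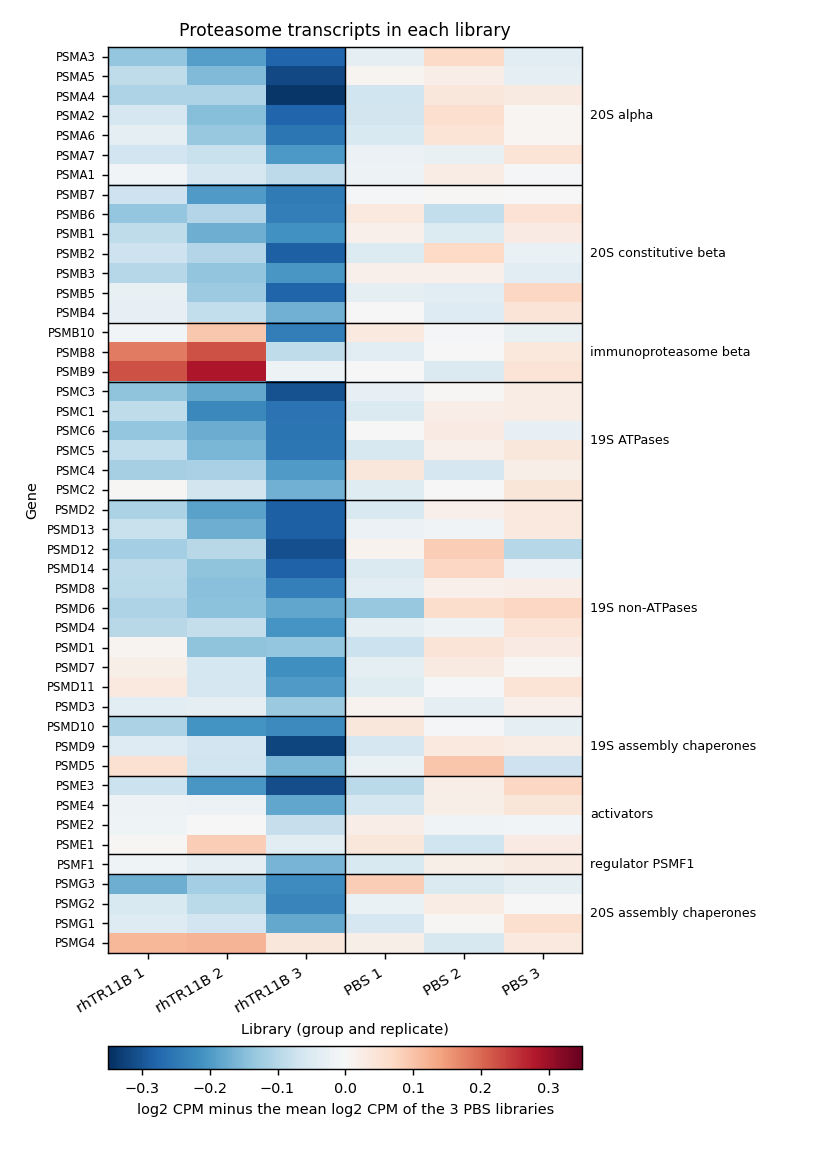
Each row is a tested proteasome gene, grouped by role, and each column a library, with rhTR11B replicates left of PBS replicates. Colour gives log2 CPM minus the mean log2 CPM of the PBS libraries, blue for lower and red for higher. The rhTR11B columns are mostly blue, deepest in replicate 3 with a median of -0.22, while PSMB8 and PSMB9 are red in rhTR11B replicates 1 and 2.

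Promoter sequences are shown for the genes with the lowest and the highest fold change and for 3 others that hold the elements described. RefSeq windows on GRCh38.p14 were found for 40 of the 46 tested genes, and the 250 bases before each annotated start were searched on both strands for 4 elements of factors known to act on proteasome genes, of which 3 are given here. The antioxidant response element core TGACNNNGC, bound by NFE2L1 and NFE2L2, was present in 13 of 40, or 32.5%, against 15.7% of 10719 tested genes with a window. The CCAAT box, bound by NF-Y, was present in 45.0% against 41.3%. The core of the interferon-stimulated response element, GAAA followed after any 2 bases by GAAA, was present in 5 of 40, or 12.5%, against 3.30%. The 5 were PSMA4, PSMB4, PSMB10, PSME2 and PSMG4. No window of the immunoproteasome genes PSMB8 and PSMB9 held this core. Genes with several annotated starts were counted once if any window held a match. Some genes hold more than one kind of element, and a match of letters is a description and not a binding site. The sequences below run 5′ to 3′ on the gene's strand and end at the base before the start, with matches in capitals. PSMC3 (chr11:47426440-47426689, minus strand) had the lowest fold change and a CCAAT box. PSMB3 (chr17:38752491-38752740, plus strand), a constitutive beta subunit, holds an antioxidant core and a pair of CCAAT boxes. PSMB9 (chr6:32853942-32854191, plus strand) had the highest fold change and holds a CCAAT box and an antioxidant core on the reverse strand. PSMB10 (chr16:67936851-67937100, minus strand) and PSME2 (chr14:24146611-24146860, minus strand) hold the interferon core 21 and 28 bases before the start, and PSME2 also an antioxidant core.
PSMC3: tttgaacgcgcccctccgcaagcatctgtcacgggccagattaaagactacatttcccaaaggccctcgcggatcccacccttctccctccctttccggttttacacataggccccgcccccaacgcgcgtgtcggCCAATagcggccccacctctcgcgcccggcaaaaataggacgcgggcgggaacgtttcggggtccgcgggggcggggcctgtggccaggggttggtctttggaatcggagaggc
PSMB3: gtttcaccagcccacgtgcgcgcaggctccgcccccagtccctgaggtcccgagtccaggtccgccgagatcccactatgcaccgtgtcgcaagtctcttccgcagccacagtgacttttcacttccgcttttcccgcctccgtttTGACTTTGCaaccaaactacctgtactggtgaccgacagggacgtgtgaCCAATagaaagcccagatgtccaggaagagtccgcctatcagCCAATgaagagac
PSMB9: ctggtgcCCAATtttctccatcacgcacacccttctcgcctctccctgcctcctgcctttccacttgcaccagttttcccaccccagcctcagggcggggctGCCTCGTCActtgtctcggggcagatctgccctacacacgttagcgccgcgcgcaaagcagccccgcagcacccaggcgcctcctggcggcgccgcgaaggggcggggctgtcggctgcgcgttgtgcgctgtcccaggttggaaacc
PSMB10: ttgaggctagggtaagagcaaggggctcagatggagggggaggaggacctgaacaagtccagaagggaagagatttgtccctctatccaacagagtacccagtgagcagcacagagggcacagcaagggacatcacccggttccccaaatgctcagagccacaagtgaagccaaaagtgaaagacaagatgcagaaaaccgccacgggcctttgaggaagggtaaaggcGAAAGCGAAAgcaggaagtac
PSME2: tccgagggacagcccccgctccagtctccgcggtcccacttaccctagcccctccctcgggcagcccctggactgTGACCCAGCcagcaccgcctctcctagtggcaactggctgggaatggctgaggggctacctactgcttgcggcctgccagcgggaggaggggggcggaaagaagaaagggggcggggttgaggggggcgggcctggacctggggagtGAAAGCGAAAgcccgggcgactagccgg

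The 7 tested alpha subunits, which form the outer rings of the 20S core, had log2 fold changes from -0.20 for PSMA3 to -0.05 for PSMA1, with a median of -0.16. PSMA3 (chromosome 14, 58244843 to 58272004) had 93.4, 89.7 and 84.7 CPM in rhTR11B replicates 1 to 3, against 100.3, 108 and 100.03 CPM in PBS replicates 1 to 3. Each rhTR11B library lay below each PBS library. The log2 fold change was -0.20 (SE 0.06) and did not pass (edgeR adjusted p = 0.0635). In GENCODE 29 PSMA3 is overlapped on the opposite strand by PSMA3-AS1 and ARMH4, whose reads cannot be told apart from its own because the strand setting of the counting is not given. The groups also lay apart for PSMA4, PSMA5 and PSMA7, which makes 4 of 7 against 14.0% of all tested genes, and overlapped for PSMA1, PSMA2 and PSMA6. Per length, the alpha transcripts spanned a wide range of FPKM although the subunits are equal in number in the particle. The level of PSMA7 was 333 ± 20.5 FPKM with rhTR11B and 365 ± 8.13 FPKM with PBS, and that of PSMA4 29.2 ± 2.96 FPKM with rhTR11B and 33.5 ± 1.41 FPKM with PBS (SD, n = 3 each). The lengths behind the FPKM values were 962 bases for PSMA7 and 4467 bases for PSMA4 in the authors' annotation. PSMA8, a subunit of the testis, had 1 count in all 6 libraries together and was not tested.

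The 7 constitutive beta subunits had log2 fold changes from -0.17 for PSMB7 to -0.09 for PSMB4, with a median of -0.15, and the groups lay apart, lower with rhTR11B, for 5 of them, against 14.0% of all tested genes. PSMB6 (chromosome 17, 4796164 to 4798495), the subunit that cuts after acidic residues, had 126, 129 and 117 CPM with rhTR11B, against 142, 131 and 144 CPM with PBS. Its groups did not overlap, and the log2 fold change was -0.16 (SE 0.06, edgeR adjusted p = 0.121). PSMB7 (chromosome 9, 124353465 to 124415442), which cuts after basic residues, had 156, 143 and 138 CPM with rhTR11B, against 163, 164 and 164 CPM with PBS. All rhTR11B libraries were below the narrow PBS range, with a log2 fold change of -0.17 (SE 0.06, adjusted p = 0.0930, and 0.0400 without rhTR11B replicate 1). PSMB5 (chromosome 14, 23025851 to 23035220), which cuts after hydrophobic residues and is the main target of bortezomib, had 148, 138 and 124 CPM with rhTR11B, against 147, 146 and 158 CPM with PBS. Its groups overlapped through rhTR11B replicate 1, and the log2 fold change was -0.14 (SE 0.07, adjusted p = 0.198), or -0.08 without rhTR11B replicate 3.

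Of the 3 immunoproteasome subunits PSMB9 and PSMB8 had log2 fold changes above 0 and PSMB10 one below 0, and none passed. Their difference from the other proteasome genes was not tested. PSMB9 (chromosome 6, 32854192 to 32859851), the interferon-induced counterpart of PSMB6, had 22.7, 23.7 and 19.3 CPM with rhTR11B, against 19.5, 18.8 and 20.2 CPM with PBS. Replicates 1 and 2 of rhTR11B were above all PBS libraries, and replicate 3 was within their range. The log2 fold change was 0.17 (SE 0.09, edgeR adjusted p = 0.243), and it ran from 0.11 to 0.25 with 1 library left out, highest without rhTR11B replicate 3. PSMB8 (chromosome 6, 32840717 to 32844679), the counterpart of PSMB5, had 39.8, 40.9 and 32.9 CPM with rhTR11B, against 34.2, 35.02 and 36.0 CPM with PBS. In GENCODE 29 the models of PSMB8, PSMB9 and the antisense PSMB8-AS1 overlap, and TAP1 overlaps PSMB9 on the opposite strand. The reads of these genes may therefore not be fully separated. TAP1 had 4412 to 5670 counts in each library and PSMB9 686 to 884. PSMB8 showed the same order as PSMB9, with replicates 1 and 2 above the PBS libraries and replicate 3 below them, and a log2 fold change of 0.11 (SE 0.08, adjusted p = 0.406). Leaving out rhTR11B replicate 3 gave 0.20 (adjusted p = 0.0911), and leaving out rhTR11B replicate 2 gave 0.05. PSMB10 (chromosome 16, 67934506 to 67936850), the counterpart of PSMB7, had 27.6, 29.7 and 23.5 CPM with rhTR11B, against 28.5, 27.7 and 27.3 CPM with PBS. The rhTR11B libraries lay on both sides of the PBS range, with a log2 fold change of -0.05 (SE 0.08, adjusted p = 0.783) that was 0.04 without rhTR11B replicate 3.

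**Figure D2:**
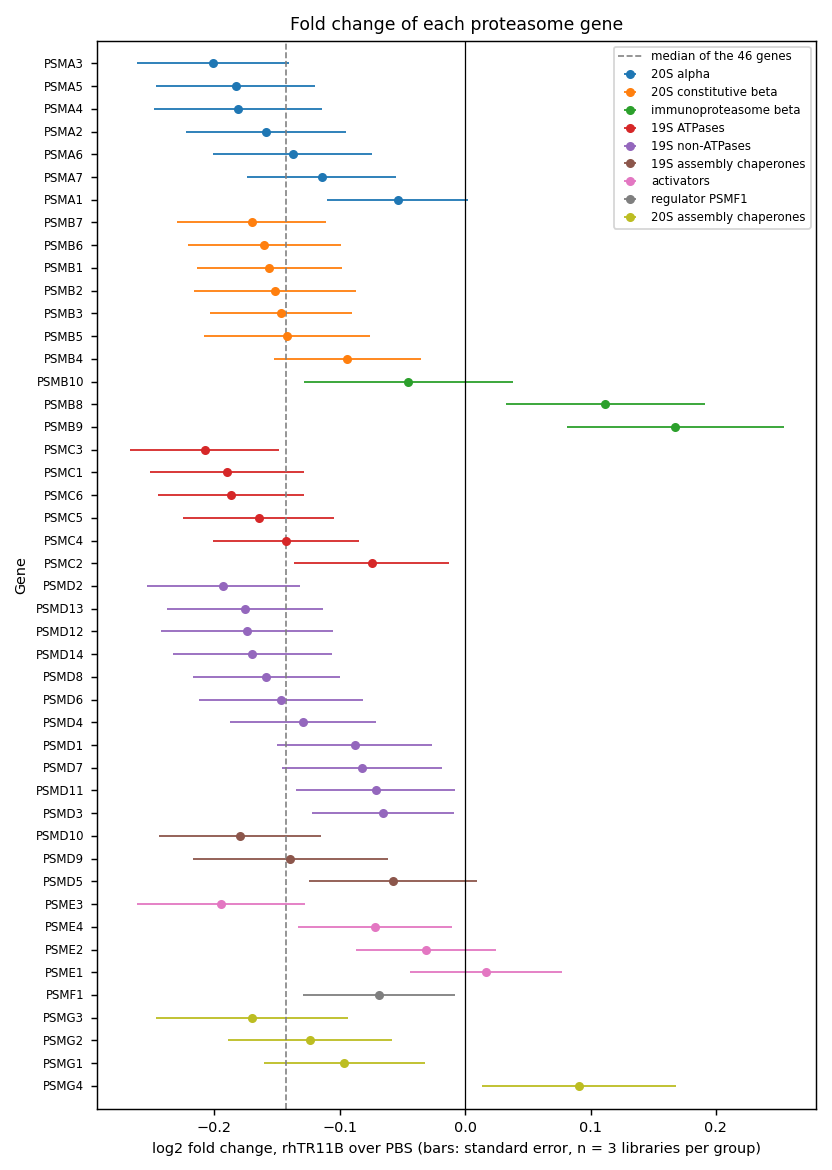
Points give the edgeR log2 fold change of each tested proteasome gene, rhTR11B over PBS, with bars for the standard error (n = 3 libraries per group), coloured by role. The values run from -0.21 for PSMC3 to 0.17 for PSMB9. Of the 46 points 4 lie above 0, those of PSMB9, PSMB8, PSMG4 and PSME1.

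Set against its constitutive counterpart per length, the immunoproteasome form made up a larger part of the transcripts of a catalytic position with rhTR11B for PSMB9 and PSMB8. PSMB9 made up 12.99%, 13.2% and 11.98% of the summed FPKM of PSMB9 and PSMB6 in rhTR11B replicates 1 to 3, against 10.2%, 10.7% and 10.4% in PBS replicates 1 to 3. PSMB8 made up 18.0%, 19.5% and 17.8% of PSMB8 and PSMB5 with rhTR11B, against 15.9%, 16.3% and 15.6% with PBS. In both pairs the groups did not overlap, rhTR11B replicate 3 included. In that library PSMB9 (18.6 FPKM) and PSMB8 (21.2 FPKM) were not above the PBS libraries. PSMB6 (136 FPKM) and PSMB5 (97.9 FPKM) were below all of them, so its larger shares came through the constitutive subunits alone. The log2 ratio of PSMB9 to PSMB6 averaged -2.78 ± 0.09 with rhTR11B and -3.10 ± 0.03 with PBS, a difference of 0.32, and that of PSMB8 to PSMB5 averaged -2.15 ± 0.09 and -2.40 ± 0.04, a difference of 0.25 (SD, n = 3 each). PSMB10 made up 15.1%, 17.3% and 14.6% of PSMB10 and PSMB7 with rhTR11B, against 14.9%, 14.5% and 14.4% with PBS, where rhTR11B replicate 3 lay within the PBS range. These ratios are descriptions without a test. By CPM, the groups lay apart for 15.1% of all single tested genes, higher with rhTR11B, and for 14.0%, lower. The same share over ratios of other gene pairs was not computed. PSMB8 and PSMB9 overlap in GENCODE 29, so their pairs may not be separate observations. With 1 library left out, the difference ran from 0.29 to 0.37 for PSMB9, from 0.20 to 0.28 for PSMB8 and from 0.03 to 0.18 for PSMB10, with the lowest of these without rhTR11B replicate 2.

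**Figure D3:**
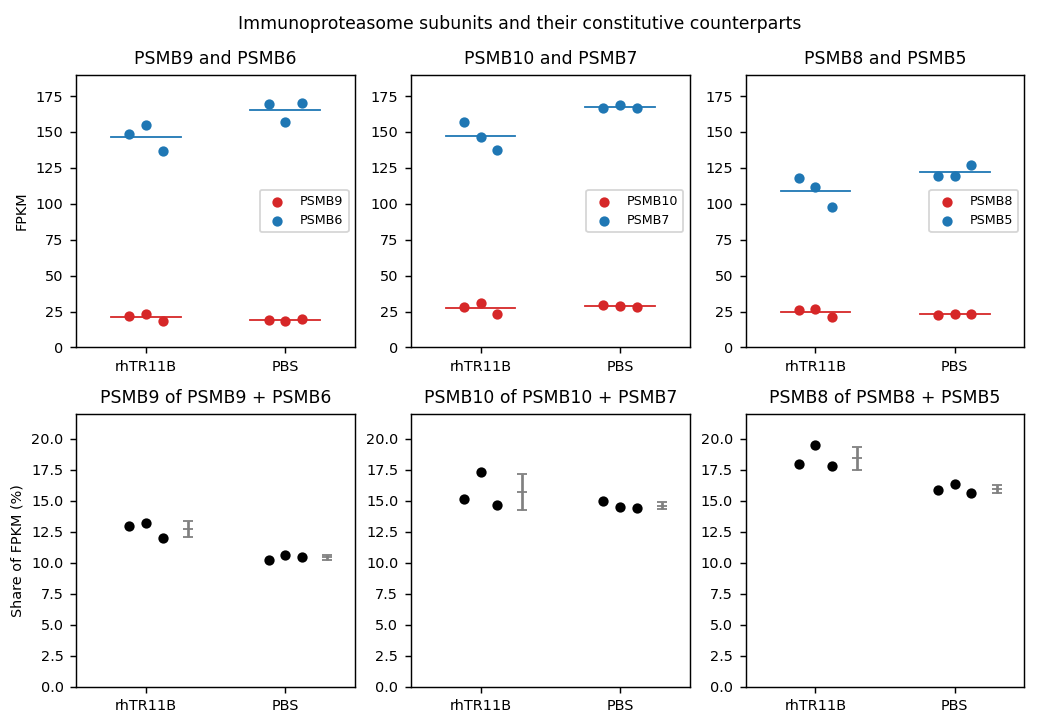
Upper panels plot FPKM of each immunoproteasome subunit (red) and its constitutive counterpart (blue) per library, with lines at the group means. Lower panels plot the immunoproteasome subunit's share of the summed FPKM, with the mean and SD beside the points (n = 3). The shares of PSMB9 and PSMB8 are 11.98% to 13.2% and 17.8% to 19.5% with rhTR11B, above all PBS libraries. How often other gene pairs lie apart was not computed.

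Among the 19S ATPases, which unfold substrates and drive them into the core, the median log2 fold change was -0.18, and the groups lay apart, lower with rhTR11B, for 5 of 6, against 14.0% of all tested genes. PSMC3 (chromosome 11, 47418775 to 47426439) had 267, 260.2 and 239 CPM with rhTR11B, against 289, 296 and 300.2 CPM with PBS. Every rhTR11B library was lower than every PBS library. The log2 fold change of -0.21 (SE 0.06, edgeR adjusted p = 0.0571) was the lowest of the 46 genes. It passed with DESeq2 (adjusted p = 0.0148) and without rhTR11B replicate 1 (adjusted p = 0.0339), and its adjusted p reached 0.213 with another library left out. PSMC1 and PSMC6 had -0.19 each, PSMC5 -0.16, PSMC4 -0.14 and PSMC2 -0.07. For PSMC1, 13 pseudogenes are named in GENCODE 29, so its value is uncertain where reads match both.

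The 11 tested non-ATPase subunits of the 19S particle ranged in log2 fold change from -0.19 to -0.07, with a median of -0.15. At the lower end stood PSMD2, a scaffold that binds ubiquitin-like domains, with 301 ± 18.2 CPM with rhTR11B and 345 ± 10.96 CPM with PBS (SD, n = 3 each; edgeR adjusted p = 0.0732). PSMD14, the enzyme that removes ubiquitin chains from captured substrates, had 109 ± 7.42 CPM with rhTR11B and 123 ± 5.58 CPM with PBS (adjusted p = 0.112). The ubiquitin receptor PSMD4 had 137 ± 6.30 CPM with rhTR11B and 150.3 ± 4.51 CPM with PBS (adjusted p = 0.183). The other end was held by PSMD3, at -0.07. Of the 11 genes, 6 had groups that lay apart, lower with rhTR11B, against 14.0% of all tested genes, PSMD2, PSMD4 and PSMD14 among them. The chaperones that assemble the 19S base had -0.18 for PSMD10, -0.14 for PSMD9 and -0.06 for PSMD5.

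The activators, which open the core in place of the 19S particle, had log2 fold changes from -0.19 for PSME3 to 0.02 for PSME1. None passed, and their differences from each other were not tested. PSME1 and PSME2 form the interferon-induced activator of the cytoplasm and lie near each other on chromosome 14. PSME1 (24136194 to 24138962) had 92.5, 98.0 and 89.8 CPM with rhTR11B, against 95.0, 87.9 and 94.3 CPM with PBS. PSME2 (24143365 to 24146610) had 142, 143 and 135 CPM with rhTR11B, against 145, 142 and 142 CPM with PBS. Both pairs of groups overlapped, with log2 fold changes of 0.02 (SE 0.06, edgeR adjusted p = 0.901) and -0.03 (SE 0.06, adjusted p = 0.774). PSME3 (chromosome 17, 42833397 to 42843760), which forms the nuclear activator, had 219.7, 201 and 187 CPM with rhTR11B, against 217, 235 and 243 CPM with PBS. Replicate 1 of rhTR11B lay within the PBS range, and the log2 fold change was -0.19 (SE 0.07, adjusted p = 0.0903, and 0.0299 without that library). PSME4 (chromosome 2, 53864069 to 53970993), an activator with a role in histone breakdown, had 156, 155 and 139 CPM with rhTR11B, against 151, 159.8 and 162 CPM with PBS. PSMF1 (chromosome 20, 1113263 to 1172246), a protein that inhibits the core in the test tube, had 103, 102 and 93.0 CPM with rhTR11B, against 100.3, 106 and 106 CPM with PBS. The groups overlapped for both, at -0.07 (SE 0.06, adjusted p = 0.501) for PSME4 and -0.07 (SE 0.06, adjusted p = 0.515) for PSMF1. Without rhTR11B replicate 3 these values were -0.02 for PSME4 and -0.02 for PSMF1.

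The chaperones PSMG1 to PSMG4 build the alpha ring, PSMG1 paired with PSMG2 and PSMG3 paired with PSMG4. PSMG3, PSMG2 and PSMG1 had log2 fold changes of -0.17, -0.12 and -0.10. PSMG4 (chromosome 6, 3254404 to 3268049) had 20.2, 20.2 and 19.2 CPM with rhTR11B, against 18.9, 18.0 and 19.1 CPM with PBS. It was the gene whose rhTR11B libraries all lay above the PBS libraries, by a narrow margin, with a log2 fold change of 0.09 (SE 0.08, edgeR adjusted p = 0.497). It has a length of 10891 bases in the authors' annotation, the longest of the 46, and TUBB2B and SLC22A23, which overlap it on the opposite strand in GENCODE 29, had at most 21 counts in any library.

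The 46 genes have features that the symbol rule did not use, and some of these hold for a part of them only. With PSMA8 included they lie on 17 chromosomes, with PSMB8 near PSMB9 and PSME1 near PSME2. By mean level, 37 of the 46 belonged to the highest quartile of all tested genes, where the median log2 fold change over all genes was -0.03 and that of the 37 was -0.15. By length, 29 belonged to the shortest quartile, at most 2347 bases, where the medians were -0.04 over all genes and -0.14 for the 29. In GENCODE 29, 17 of the 46 are overlapped by another gene of the table and 12 have pseudogenes named for them. The same shares over all tested genes were not counted. The overlapped genes include PSME1, PSME2, PSME3, PSME4 and PSMF1, each on the opposite strand. Those with named pseudogenes include PSMA3, PSMB3, PSMB7 and PSME2. Their values carry the uncertainty stated above for PSMA3 and PSMC1.

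Genes that work with the proteasome but lie outside the symbol rule gave few calls. Of 15 tested associated factors 0 were called, where 0.678% of all tested genes were called lower and 2.92% higher. At an unadjusted p under 0.05, 4 were lower and 1 higher, against 10.3% and 13.8%, and their median log2 fold change was -0.09. The core maturation factor POMP had 64.5 ± 6.08 CPM with rhTR11B and 73.7 ± 1.82 CPM with PBS (edgeR adjusted p = 0.0984). The small 19S subunit SEM1 had 56.4 ± 5.52 CPM with rhTR11B and 64.2 ± 0.724 CPM with PBS (adjusted p = 0.114). For the thioredoxin-like 19S partner TXNL1 the level was 78.5 ± 7.42 CPM with rhTR11B and 90.0 ± 3.58 CPM with PBS (adjusted p = 0.0928; SD, n = 3 each). POMP and SEM1 passed without rhTR11B replicate 1 (adjusted p = 0.0360 and 0.0364). Without rhTR11B replicate 3 the log2 fold changes of POMP, SEM1 and TXNL1 were each -0.12, against -0.19, -0.19 and -0.20 with all libraries.

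Of 11 ubiquitin genes and carriers 11 had a log2 fold change below 0, against 6779 of the 13567 genes tested. Their median was -0.13. Called lower was 1 and higher 0, against 0.678% and 2.92% of all tested genes. RPS27A, which encodes ubiquitin fused to a ribosomal protein, fell to 479 ± 57.9 CPM with rhTR11B, against 579.6 ± 12.9 CPM with PBS (log2 fold change -0.28, SE 0.07, edgeR adjusted p = 0.0483). It lost its call without any one of the PBS libraries, where its adjusted p reached 0.214. Over all tested genes 0.196%, 0.0363% and 0.0218% were called lower without PBS replicates 1, 2 and 3. The polyubiquitin gene UBB had -0.17 (adjusted p = 0.0966). RPS27A also belongs to the ribosomal protein genes, whose share of counts was lower with rhTR11B, and the part of that share in its value was not tested.

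Of 9 genes that regulate proteasome transcription 1 was called higher and 0 lower, against 2.92% and 0.678% of all tested genes. NFE2L1, the transcription factor known to raise proteasome genes when the proteasome is impaired, rose to 334 ± 20.4 CPM with rhTR11B, against 285 ± 9.90 CPM with PBS (log2 fold change 0.23, SE 0.06, edgeR adjusted p = 0.0459). Its libraries did not overlap between the groups. Over all tested genes 385, 255, 18 and 9 were called higher without rhTR11B replicate 2 and without PBS replicates 1, 2 and 3. The NFE2L1 call was absent from each of these fits, with an adjusted p of up to 0.217. The other 8 had log2 fold changes from -0.16 to -0.04, among them NGLY1, which removes sugar chains from the NFE2L1 protein, at -0.16 (adjusted p = 0.207), and the NF-Y subunit gene NFYC at -0.13 (adjusted p = 0.227).

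Around the immunoproteasome, genes of interferon signalling and of class I peptide supply differed from each other in their calls. Of 9 interferon pathway genes 1 was called higher and 0 lower, against 2.92% and 0.678% of all tested genes. The called gene was the receptor chain IFNGR1, at 65.1 ± 7.03 CPM with rhTR11B and 53.3 ± 4.42 CPM with PBS (log2 fold change 0.29, edgeR adjusted p = 0.0484, up to 0.214 with 1 library left out). The factor IRF1, which induces the immunoproteasome genes, had -0.06 (adjusted p = 0.593). STAT2 had 0.18 (adjusted p = 0.116). NLRC5, the activator of class I genes, was low, at 0.401 ± 0.117 CPM with rhTR11B and 0.228 ± 0.0844 CPM with PBS (adjusted p = 0.293). Of 12 class I supply genes 10 were called higher and 0 lower, against 2.92% of all tested genes called higher, and the median log2 fold change was 0.31. They include the peptide-trimming enzymes ERAP1 (0.29, adjusted p = 0.0227) and ERAP2 (0.42, adjusted p = 0.0349) and the peptide transporter chain TAP1 (0.29, adjusted p = 0.0257). None of the 10 was called without PBS replicate 2 or without PBS replicate 3, with adjusted p up to 0.207. In those fits 18 of 13765 and 9 of 13748 genes tested over the whole table were called higher. TAP1 and PSMB9 are transcribed away from each other with annotated RefSeq starts 488 bases apart, and the GENCODE 29 models of the pair overlap on opposite strands. PSMB9 itself had 0.17, as given above, and the difference between it and TAP1 was not tested.

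**Figure D4:**
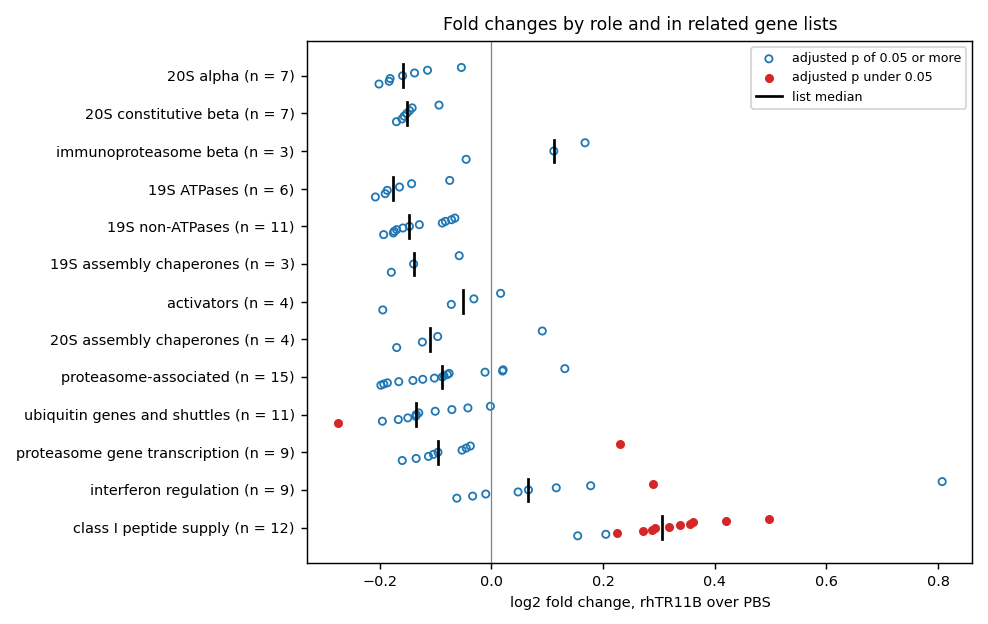
Points give log2 fold changes, rhTR11B over PBS, for tested genes by proteasome role and in 5 related lists, with black bars at the list medians. Filled red points have an edgeR adjusted p under 0.05. PSMF1 is not plotted. The proteasome roles hold open points only, with medians from -0.18 for the ATPases to 0.11 for the immunoproteasome subunits, while the class I list, at 0.31, holds 10 filled points.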

How the data were processed

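The authors deposited raw read counts per gene symbol and an FPKM table. The submitters' processing notes name GRCh38 as the build and list DESeq2, HTSeq, HISAT, fastp and R 3.2.0. What each tool did, the annotation and the strand setting: not given in the sources used here. The FPKM values made by the authors equal count over a gene length and the library total for 100% of values (relative tolerance 0.001), and they were used to compare levels between genes.

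Libraries were grouped by the treatment in the labels. Counts were tested with edgeR 4.0.16 in R 4.3.3: filterByExpr (minimum count 10), TMM scaling, group as the only term, the quasi-likelihood test, and Benjamini-Hochberg adjustment over all 13567 genes tested. CPM values use TMM-scaled library sizes. Standard errors were taken as the size of the log2 fold change over the root of F. The step was tested on simulated data. Chi-square per degree of freedom between libraries of the same group was 5.33 to 26.1, above sampling noise, so none was counted as a copy. The pairs with rhTR11B replicate 3 gave 23.1 and 26.1, and the other pairs 5.33 to 9.56, so that library differed most over the whole table.

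The members, lists and tests were chosen with earlier results of these data known. Genes given in every library were those called, the 6 catalytic subunits, the activators, PSMF1 and the 3 highest and 3 lowest fold changes. From each related list the called genes and up to 3 with the smallest p were named. The other genes named were chosen after their values were seen, and a few results are not reported here. Alternatives were other scalings, filters and thresholds, DESeq2 1.42.0, limma 3.58.1 (voom on counts, and trend on log2(FPKM + 1) or log2(FPKM + 0.1)), the replicate number as a block, and leaving out each library. Gene positions and promoters are from RefSeq (GRCh38.p14), which matched all 47 symbols for position, and gene overlaps from GENCODE 29.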

Additional observations from a re-analysis of the deposited data

How the results depend on the processing

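No proteasome gene was called higher in any fit. Calls of lower proteasome genes numbered 0 except with DESeq2 (5), with no low-count filter (8), at an adjusted p under 0.1 (9) and without rhTR11B replicate 1 (8). With 1 library left out they ran from 0 to 8. Over the same fits the 46 genes had medians from -0.17 to -0.09 (log2). Over all genes, 396 were higher and 92 lower. These counts became 761 and 346 with DESeq2, 940 and 483 with no filter, 205 and 26 with a mean of at least 5 CPM, and 1056 and 556 at an adjusted p under 0.1, or 45 and 5 under 0.01. With limma-trend on genes with a mean of at least 1 FPKM they were 62 and 21 (pseudocount 1) or 64 and 22 (pseudocount 0.1), and 0 and 0 with no filter, where 1587 genes had a lower and 1486 a higher value at an unadjusted p under 0.05. With 1 library left out they ran from 9 to 903 higher and from 3 to 427 lower, highest without rhTR11B replicate 1. They were 385 and 47 without rhTR11B replicate 2, and 255 and 27, 18 and 5, and 9 and 3 without PBS replicates 1, 2 and 3. Without the mitochondrially encoded genes, chosen after seeing the data, they were 392 and 75. With the replicate number as a block they were 774 and 252, and 0 proteasome genes. Deviations of same-numbered libraries had correlations of -0.22, 0.11 and -0.02, against -0.21 to 0.24 for libraries with different numbers. With 3 libraries per group these values cannot decide whether the numbers mark pairs, and the labels do not say. Directions turned for PSMB10, at 0.0445 without rhTR11B replicate 3 (from -0.121 to 0.0445 with 1 library left out), and for PSME1, at -0.0190 without rhTR11B replicate 2 and -0.0179 without PBS replicate 2 (from -0.0190 to 0.0454) and at -0.00060, -0.00062 and -0.00060 with the FPKM fits. The cause was not tested. With 3 libraries per group, a proteasome gene that was not called is not shown to be unaffected.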
